A study of Mus musculus with 8 samples.

Results

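Open chromatin in the liver of fasted Ppara knockout mice was compared with that of fasted wild type mice, from 2 ATAC-seq libraries of each genotype. ATAC-seq uses a transposase to insert sequencing adapters into DNA that is not wrapped tightly in nucleosomes, so a peak marks an accessible stretch of the genome. The authors' peak lists were mapped to their 49587 consensus regions, and an overlap of 1 bp or more with a peak made a region called. A changed region had a call from the 2 libraries of one genotype and none from the other genotype. Regions called only in wild type are named lost below, and those called only in Ppara knockout gained, as shorthand for these calls. Of the 39995 regions called in at least 1 of the 4 libraries, 6968 were changed regions by this rule.

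All mice were male, 9 weeks old and of strain C57BL/6, and all were fasted for 24 h before flash-frozen liver was taken. The wild type group had the label WT, and the knockout group carried the genotype Ppara -/-. Another 4 libraries, 2 of the genotype Cpt2 L-/- (a liver knockout of Cpt2) and 2 of Cpt2 L-/- ; Ppara -/- (double knockout), gave the same loss of Ppara on a Cpt2 knockout background. The labels name neither the Cre driver of the Cpt2 deletion nor the exons removed at Ppara, and they do not say whether the libraries of a group came from separate mice. A p-value here therefore measures the spread between these libraries, which may be technical. The numbers in the peak names were 441 and 443 for wild type, and 6834 and 6833 for Ppara knockout. The Cpt2 knockout lists carried 446 and 4717, and the double knockout lists 6832 and 6831. If the numbers stand for batches, then a batch and the Ppara genotype cannot be told apart, and this holds for every comparison of the 2 statuses given here.

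Ppara is a nuclear receptor that is activated by fatty acids and pairs with a retinoid X receptor on DNA. In the fasted liver it is known for switching on genes of fatty acid uptake, oxidation and ketone body synthesis, and the hormone gene Fgf21. The pair binds direct repeats of AGGTCA with 1 base between the copies.

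The promoters below show that repeat, or its lack, at genes whose start lay in a region called in both wild type and in neither Ppara knockout library. The sequences are RefSeq's for GRCm38.p6, the assembly of mm10, and run 5′ to 3′ on the gene's strand for the 250 bases before its start. Capitals mark the best match to AGGTCANAGGTCA on either strand. Fabp1, the liver fatty acid binding protein (chr6:71199629-71199878, plus strand), has a match with 1 mismatch at bases 67 to 55 before the start. Bco1, which splits beta-carotene (chr8:117095615-117095864, plus strand), has a match with 0 mismatches at bases 56 to 44. Slc25a47, a mitochondrial carrier made in liver (chr12:108850879-108851128, plus strand), has one with 2 mismatches at bases 153 to 141 before a start inside the gene's span. Acaa1b, a peroxisomal thiolase (chr9:119157094-119157343, minus strand), and Alb, which encodes albumin (chr5:90460620-90460869, plus strand), have no match with fewer than 4 mismatches and are shown without capitals.
Fabp1: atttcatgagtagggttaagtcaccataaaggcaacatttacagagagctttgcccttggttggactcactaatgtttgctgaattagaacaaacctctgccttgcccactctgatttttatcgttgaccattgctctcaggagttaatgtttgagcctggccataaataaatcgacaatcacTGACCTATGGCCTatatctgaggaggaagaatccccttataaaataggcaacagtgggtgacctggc
Bco1: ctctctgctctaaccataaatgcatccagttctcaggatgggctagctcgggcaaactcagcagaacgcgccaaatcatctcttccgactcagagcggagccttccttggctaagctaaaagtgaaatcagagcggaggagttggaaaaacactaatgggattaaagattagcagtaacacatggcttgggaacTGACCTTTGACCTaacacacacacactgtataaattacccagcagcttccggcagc
Slc25a47: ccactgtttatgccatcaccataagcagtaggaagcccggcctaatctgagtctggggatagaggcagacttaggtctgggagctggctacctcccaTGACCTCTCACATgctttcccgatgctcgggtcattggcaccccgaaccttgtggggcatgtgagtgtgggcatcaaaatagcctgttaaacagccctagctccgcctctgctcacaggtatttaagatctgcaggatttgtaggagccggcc
Acaa1b: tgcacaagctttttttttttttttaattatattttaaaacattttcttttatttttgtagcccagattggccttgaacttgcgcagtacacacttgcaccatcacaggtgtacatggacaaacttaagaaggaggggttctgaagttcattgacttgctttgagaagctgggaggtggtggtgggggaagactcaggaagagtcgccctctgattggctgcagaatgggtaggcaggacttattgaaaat
Alb: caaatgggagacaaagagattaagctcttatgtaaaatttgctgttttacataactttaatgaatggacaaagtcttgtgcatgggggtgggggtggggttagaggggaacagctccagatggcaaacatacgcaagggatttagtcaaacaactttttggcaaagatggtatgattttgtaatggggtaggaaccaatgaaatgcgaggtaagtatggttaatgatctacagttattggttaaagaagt

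Matches with at most 2 mismatches were counted over all promoters as a background. In windows from 250 bases before to 50 after a start, it stood in 37 of the 1118 promoters that overlapped a region called only in wild type (3.31%). In equal-number lists it stood in 11 of 235 such promoters (4.68%) and in 4 of 237 that overlapped a region called only in Ppara knockout (1.69%). It stood in 245 of 8058 promoters with a region called in all 4 libraries (3.04%) and in 1268 of all 32851 promoters (3.86%). With at most 1 mismatch the counts were 8 of 1118 (0.716%) and 182 of 32851 (0.554%). Bco1 was the only one of the 1118 with an exact match, against 13 exact matches among all promoters. A match is a run of letters and not a shown binding site.

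The peak caller's −log10 p, an authors' value for each peak, rates a peak against its local background and is used here to describe and rank peaks within a list. The region at the Fabp1 promoter (chr6:71199587-71200088) had a −log10 p of 14.2 and 67.6 in the wild type libraries and was called in neither Ppara knockout library. At Bco1 the values were 16.7 and 24.2, and at Slc25a47 17.8 and 37.7, again with no peak in either knockout. The Acaa1b promoter region (chr9:119156848-119157351) had 29.7 and 91.1. Alb, the most abundant protein product of hepatocytes, had 86.4 and 127.6 at its promoter region (chr5:90460515-90461037), with no peak in Ppara knockout. That region was called in both double knockout libraries, with a −log10 p of 24.6 and 20.7, while the other 4 promoters had no peak there in double knockout. Other starts with both a lost region and a match were those of Adh4, an alcohol dehydrogenase, Lipc, the hepatic lipase, Mogat1, a triglyceride synthesis enzyme, and Nr1h4, the bile acid receptor. Their wild type values were 14.9 and 18.8, 25.5 and 36.2, 17.8 and 25.9, and 18.2 and 31.4 in that order. The starts used for Slc25a47, Lipc and Nr1h4 lie inside the gene's span. Their regions were 1049, 17215 and 26562 bp from the nearest gene end in that order. The 5 printed promoters and the 4 other starts were chosen after their values were seen. In equal-number lists the regions at Acaa1b and Alb were still called only in wild type. None of the 7 with a match was: those at Fabp1, Slc25a47 and Lipc were called in 1 or more of the 4 libraries without meeting the rule, and those at Bco1, Adh4, Mogat1 and Nr1h4 in none.

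Loss of regions in Ppara knockout far outnumbered gain. Called only in wild type were 6740 regions, which is 16.9% of the 39995, and called only in Ppara knockout were 228, which is 0.570%. All 4 libraries called 13505 regions (33.8%). The lists differed in length, with 28733 and 36141 peaks in wild type and 20340 and 18283 in Ppara knockout. The means were 32437 ± 5238 and 19312 ± 1455 (SD, n = 2 each), a ratio of 0.595, and the groups did not overlap (exact permutation test, two-sided, p = 0.333, which is the smallest value for 2 against 2 libraries). The peaks covered 12.3 and 15.5 Mb in wild type and 7.47 and 7.03 Mb in Ppara knockout. A median peak had a −log10 p of 28.4 and 36.7 in wild type and of 21.3 and 19.5 in Ppara knockout. The deposited lists give no read total per library, so the depth behind these numbers is unknown.

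Lists cut to equal length brought the directions nearer to each other. In equal-number lists, which hold the 18132 strongest peaks of each library, 26097 regions were called in at least 1 of the 4 libraries. Of these, 1707 (6.54%) were called only in wild type and 1179 (4.52%) only in Ppara knockout. In equal-number lists such a call means only that the other genotype had no peak among those kept. With all peaks, 228 regions called in both Ppara knockout libraries had no wild type peak. Most of the 1179 thus had a wild type peak that the cut left out. Equal length forces the directions toward balance, and the share lost in equal-number lists is therefore given below beside that with all peaks, where a group has regions there.

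Lost regions were mostly the weaker ones of wild type and mostly lay away from gene ends. A gene end here is either edge of a gene's span, so the edge at its start counts as one. Of the 25775 regions that both wild type libraries called, 26.1% were called in neither Ppara knockout library. Split into 10 equal classes by wild type strength (the mean percentile of −log10 p in the 2 lists), the lost share was 67.3% in the weakest class, 26.9% in class 5 and 0.272% in the strongest. Regions more than 1 kb from either end of a gene were lost more often than regions at gene ends in every class. In class 5 the shares were 33.3% against 13.8%, and in the strongest class 7 of 957 regions away from gene ends were lost (0.731%) and 0 of 1621 at gene ends. In the knockout direction, the share of the 14237 regions called in both knockout libraries that wild type lacked was 4.99% in the weakest class and 0.0702% in the strongest.

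**Figure D1:**
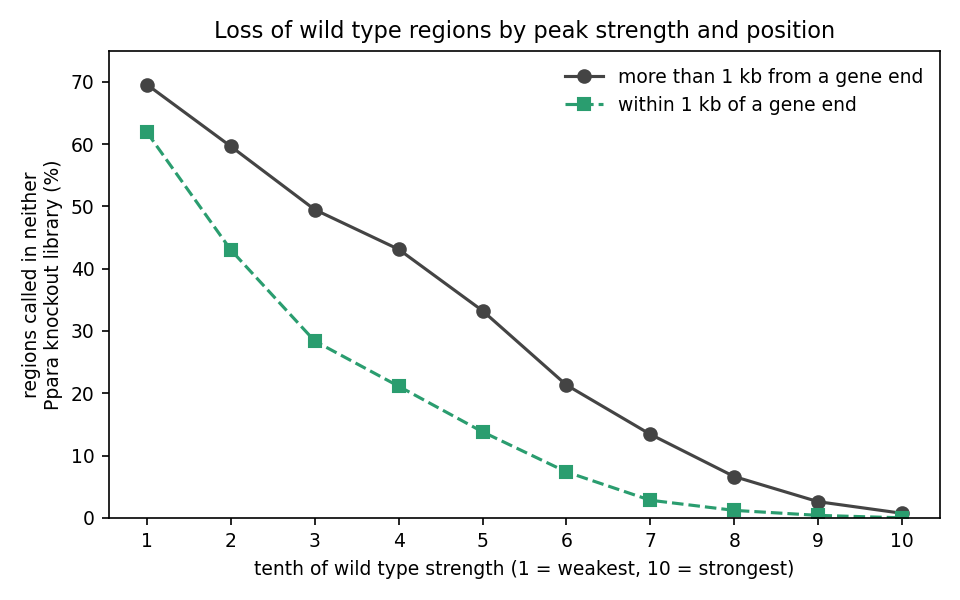
The share of wild type regions (%) called in neither Ppara knockout library is plotted against 10 equal classes of wild type strength, from weakest (1) to strongest (10). Black circles are regions more than 1 kb from a gene end and green squares are regions within 1 kb, and the black line runs above the green one in each class, at 33.3% against 13.8% in class 5.

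A gene end lay within 1 kb of 20.4% of the lost regions, while the share was 50.2% for regions called in all 4 libraries and 29.5% for all 39995. For regions called only in Ppara knockout the share was 8.77% with all peaks. In equal-number lists it was 24.1%, where wild type only regions had 15.5% and all regions 35.6%. A median lost region was 392 bp wide and a median region shared by all 4 libraries 615 bp. Regions inside genes but beyond 1 kb of an end made up 46.5% of wild type only and 47.4% of knockout only regions. Of 6564 lost regions on chromosomes with promoter sequences, 122 (1.86%) lay within 1 kb of a gene's far end and not of a start.

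At Ppara itself the targeted gene kept its promoter peak and lost 10 of its 24 assigned regions (41.7%), with none called only in knockout. The promoter region (chr15:85734711-85736214) had a −log10 p of 108.0 and 119.5 in wild type and of 20.3 and 29.4 in Ppara knockout. Its percentile among the 13505 shared regions was 87.3 and 75.6 in wild type and 30.3 and 66.9 in Ppara knockout, so both knockout libraries ranked it lower. The strongest lost region lay inside the gene (chr15:85774288-85774815), with 62.1 and 115.6 in wild type and no peak in Ppara knockout or double knockout. Another region inside the gene (chr15:85787162-85787937) was called in every library, with 128.1 and 187.3 in wild type and 32.3 and 36.8 in Ppara knockout. These peaks show that reads still map at the gene. They do not check the deletion, because the labels do not place it.

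**Figure D2:**
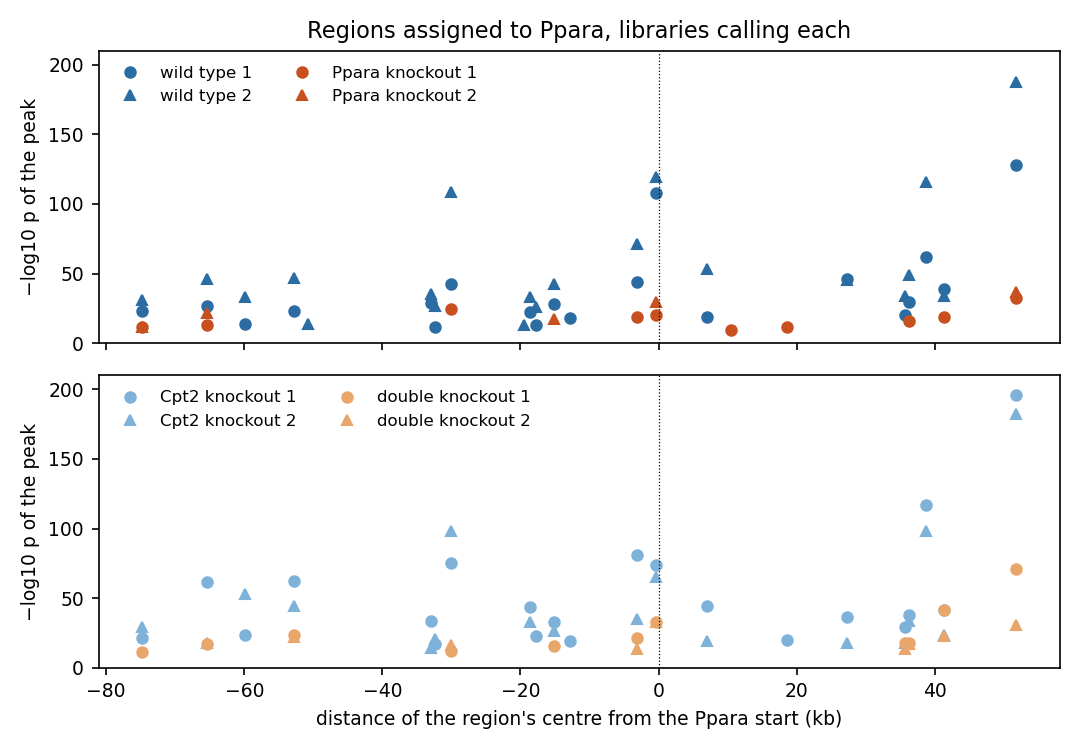
The −log10 p of each peak assigned to Ppara is plotted against the distance (kb) of its region's centre from the gene's start, with wild type and Ppara knockout above and Cpt2 knockout and double knockout below. At the promoter, near distance 0, the Ppara knockout points stand at 20.3 and 29.4 and the wild type points at 108.0 and 119.5.

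Among regions called only in wild type, those with the highest mean percentile stood near genes of varied function, and the first 3 lay near Vmn2r102, a vomeronasal receptor gene, and inside Abhd6 and Tbc1d1. The next lay inside Chrna2, a nicotinic receptor subunit (chr14:66140552-66141115), with a −log10 p of 89.5 and 166.8. A region 15333 bp from Mycl, a Myc family transcription factor (chr4:122979792-122980255), had 97.8 and 134.6. Zfand4 held one near its start (chr6:116265542-116265948), with 116.1 and 109.5. Each of these 3 was also called in 1 of the 2 double knockout libraries. A region 18635 bp from Camsap2, which caps microtubule minus ends (chr1:136364752-136365089), had 111.4 and 108.0 and was called in both double knockout libraries. Cyp2j5, an arachidonic acid epoxygenase, had a region 836 bp away (chr4:96665007-96665467) with 80.4 and 139.1, and no library without Ppara called it.

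Regions called only in Ppara knockout were few and mostly weak, with a median mean percentile of 35.3 and only 1 region at 90 or above. That one overlapped a RefSeq start of Gm41331 and lay 125045 bp from 4933412E24Rik, the nearest protein-coding gene. It had 104.1 and 122.7 in Ppara knockout and 81.2 and 106.4 in double knockout. The next 3 were those nearest Cyp2b19, Mfng and Tbc1d32, at 7208, 2507 and 798935 bp in that order. In a region 130428 bp from Zfp521, a zinc finger gene, the values were 32.4 and 38.9, with a peak of 24.2 in Cpt2 knockout 1. A region inside both Chad, a cartilage matrix gene, and Acsf2, an acyl-CoA synthetase (chr11:94566575-94566933), had 28.5 and 46.0. One inside Ppm1k, the phosphatase that activates branched-chain amino acid breakdown (chr6:57526941-57527363), had 34.6 and 31.2 and was called in both double knockout and neither Cpt2 knockout library. One inside Epb41l1, a membrane skeleton gene (chr2:156516735-156517048), had 46.2 and 24.8.

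Lost regions were spread over many genes. They were assigned to 4316 of the 13903 nearest genes, of which 113 had at least 5. Lpp, a focal adhesion gene, had the most, with 14 of 39 regions, followed by Arid1b, a chromatin remodelling subunit, and Gse1, each with 12, of 36 and 29 regions. Nfia, Ppara and Rbm47 had 10 each, of 36, 24 and 27. Irs2, the insulin receptor substrate induced by fasting, Bcor, a corepressor, and Zfp608 had 9 each, of 26, 28 and 25, and Daam1 had 8 of 19. In equal-number lists Gse1 had 8 and none of the other 9 more than 3. Genes with many regions have more to lose, and these counts carry no test. The genes with more than 1 region called only in Ppara knockout were Cps1, the first enzyme of the urea cycle, Cdk11b and Frmd8, each with 2. In equal-number lists Myc, the growth regulator, had the most, 5 of 22. With all peaks no region at Myc was called only in Ppara knockout.

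Genes that take up and bind fatty acids lost 11 of 45 regions (24.4%, against 16.9% of all regions) and gained 0. In equal-number lists they lost 15.4%, against 6.54% of all regions. Counts per gene in this and the later lists are for all peaks unless equal-number lists are named, where many are lower. Fabp1 lost 4 of 6, and 2 in equal-number lists. Besides the promoter printed above, a region 14165 bp away (chr6:71185019-71185714) had 30.3 and 88.2 in wild type and one 3434 bp away had 29.0 and 38.4. Both were absent from Ppara knockout and double knockout and present in both Cpt2 knockout libraries. Cd36, a fatty acid translocase, had a region 4743 bp away (chr5:17776586-17776947) with 116.2 and 56.5, which double knockout also called (48.1 and 19.4). Vldlr, which binds triglyceride-rich lipoproteins, lost 3 of 4 and Slc27a2, a fatty acid transporter, 1 of 9, and Fabp4 had no region. In equal-number lists Vldlr and Slc27a2 lost 0 and Cd36 lost 1. The lost Vldlr region at chr19:27286196-27286574 was called in both double knockout libraries, with 27.2 and 41.2.

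Acyl-CoA synthetases, which activate fatty acids for use, lost 10 of 31 regions (32.3%, and 24.0% in equal-number lists, against 16.9% and 6.54% of all regions). Acsl1, the main long-chain enzyme of liver, lost 7 of 17. One inside the gene (chr8:46490738-46491174) had 32.1 and 57.6 in wild type and no peak in any library without Ppara. In equal-number lists Acsl1 lost 4 and gained 1, inside the gene (chr8:46529488-46530019). With all peaks that region was shared. Its percentile among shared regions was 5.2 and 1.5 in wild type and 75.8 and 75.3 in Ppara knockout. Of the 12 shared regions of this list, 3 ranked higher and 3 lower in Ppara knockout by the rank rule given further below. Acsl5 lost 2 of 3, the stronger at an edge of the gene's span with 52.4 and 78.0, and Acsm1, a medium-chain enzyme, 1 of 4, with 71.9 and 106.2. Both of these were called in both double knockout libraries.

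The carnitine shuttle, which moves fatty acids into mitochondria, lost 7 of 22 regions (31.8%, and 18.8% in equal-number lists). Cpt1a, its rate-limiting enzyme, lost 4 of 7 but kept the region nearest its start, called in all 8 libraries, with 49.1 and 69.1 in wild type and 31.2 and 29.6 in Ppara knockout. Both double knockout libraries called the lost regions at chr19:3326245-3326856 (43.5 and 20.5) and chr19:3353687-3354076 (13.7 and 15.2). The other lost Cpt1a regions had no peak in double knockout. Cpt2 lost 1 of 2 regions, which lay inside the gene (chr4:107921928-107922335), with 36.8 and 67.1 in wild type. Slc22a5, the carnitine importer, lost 1 of 8 and Crat, carnitine acetyltransferase, 1 of 3. The Slc22a5 promoter region was shared, with percentiles among shared regions of 92.0 and 84.2 in wild type and 29.3 and 30.7 in Ppara knockout.

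Mitochondrial beta-oxidation enzymes, which shorten fatty acids step by step, had few lost regions. These were 3 of 32 (9.38%), below the 16.9% of all regions, and 4.76% in equal-number lists. Hadh, the hydroxyacyl-CoA dehydrogenase, lost 2 of 5 and Decr1, which handles unsaturated chains, 1 of 4. The region inside Hadh (chr3:131246229-131247116) had 28.5 and 55.3 in wild type. No region of Acadm, Acadl, Hadha or Hadhb was called only in wild type, and Etfdh and Acad10 had no region. Of the 32 regions, 12 were called in all 4 libraries.

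Peroxisomal oxidation, which shortens very long chains, lost 12 of 68 regions and gained 1. The lost share of 17.6% was close to the 16.9% of all regions, and in equal-number lists it was 14.6% against 6.54%. Acaa1b lost all 3 of its regions and Abcd3, a peroxisomal importer, 3 of 11. Eci2, an enoyl-CoA isomerase, lost 1 of 8, with 36.4 and 54.4 in wild type, and had the gained one 11149 bp away, with 28.5 and 22.7 in Ppara knockout. In equal-number lists Acaa1b lost 1, Abcd3 0 and Eci2 2, and Eci2 gained 1. The Ehhadh promoter region was called in all 8 libraries, with 66.1 and 83.7 in wild type and 21.6 and 33.0 in Ppara knockout.

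Omega-hydroxylation, the first step of microsomal fatty acid breakdown, had one of the highest lost shares, with 11 of 31 regions (35.5%, and 25% in equal-number lists) and 0 gained. The losses fell in the Cyp4a cluster of chromosome 4 except for 1 of 5 at Aldh3a2. Cyp4a31 lost 3 of 4 regions, and Cyp4a10, Cyp4a14 and Cyp4a32 lost 2 of 3 each. The region at an edge of Cyp4a14's span (chr4:115495871-115496389) had 16.3 and 32.3 in wild type, and one 3807 bp from Cyp4a10 (chr4:115513870-115514480) had 35.7 and 66.7. None of the 11 was called in Ppara knockout or double knockout, and all 11 were called in both Cpt2 knockout libraries. Cyp4a12b, Cyp4a29 and Cyp4a30b had no region. Near-identical copies in this cluster can share reads, so the split of peaks among its members is uncertain.

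Acyl-CoA thioesterases, which release free fatty acids, lost 8 of 23 regions (34.8%, and 29.4% in equal-number lists), all in the Acot cluster of chromosome 12. Acot4 lost 3 of 6, Acot1 and Acot3 2 each, of 4 and 3, and Acot5 1 of 2. The Acot4 region 3996 bp away (chr12:84032783-84033258) had 31.0 and 88.0 in wild type and the one at an edge of the Acot3 span (chr12:84053138-84053549) 21.6 and 59.1. One region inside Acot4 was called in both double knockout libraries and the other 7 in neither. Acot6 and Acot8 had no region, and these genes too are close copies.

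**Figure D3:**
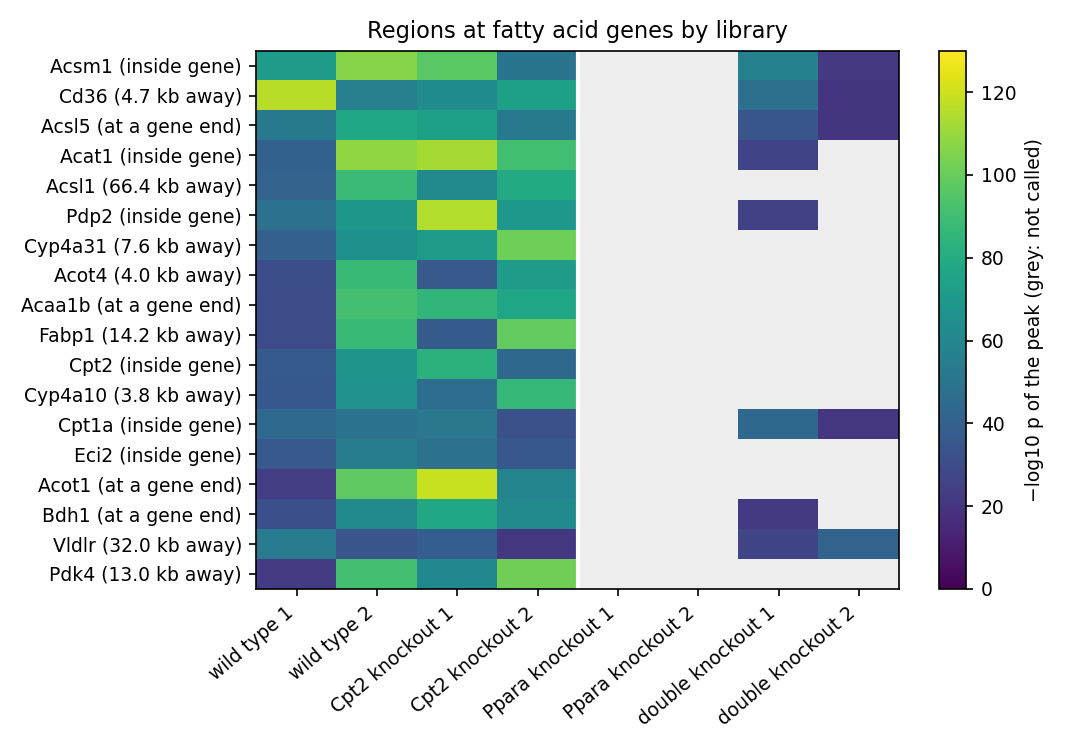
Colour gives the −log10 p of the peak in each of the 8 libraries (columns) at regions of fatty acid genes called only in wild type (rows), and grey marks no call. Both Ppara knockout columns are grey throughout by the choice of regions, while the Cpt2 knockout columns are filled and the double knockout columns are filled at some rows, such as Acsm1 with 57.0 and 21.5.

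Ketone body genes lost 9 of 35 regions (25.7%, and 12% in equal-number lists, against 16.9% and 6.54% of all regions). Acat1, which makes acetoacetyl-CoA, lost 2 of 5, the stronger (chr9:53601466-53601933) with 40.4 and 108.2 in wild type. Bdh1, which reduces acetoacetate, lost 2 of 11, one at its start with 31.9 and 62.3. Slc16a1, a ketone exporter, lost 2 of 8.

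Among fasting hormones of liver, 4 of 20 regions (20%, and 13.3% in equal-number lists) were lost. Of all regions 16.9% and 6.54% were lost, so the share with all peaks was near that of all regions. Fgf21 lost 2 of 4, at 3968 bp (chr7:45609566-45609922) with 38.2 and 42.2 and at 790 bp (chr7:45616280-45616675) with 20.9 and 38.3. Gdf15, a stress hormone, lost 1 of 3. Angptl4, a well known Ppara target, lost 0 of 4. Ppara knockout 1 called 3 of these regions and Ppara knockout 2 called 0.

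Kinases and phosphatases of pyruvate dehydrogenase, which set whether glucose carbon is burned, lost 7 of 19 regions (36.8%, and 25% in equal-number lists). Pdk4, the kinase induced by fasting, lost 3 of 6 but kept its promoter region in all 8 libraries, with 119.1 and 176.2 in wild type and 53.5 and 54.9 in Ppara knockout. A lost region 2440 bp from Pdk4 (chr6:5498718-5499183) had 23.2 and 69.0. Pdk1, Pdk2, Pdp1 and Pdp2 lost 1 each, that of Pdp2 with 49.2 and 68.9.

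Lipid droplet genes lost 11 of 49 regions (22.4%, against 16.9% of all regions). In equal-number lists they lost 8.57%, near the 6.54% of all regions. Plin5, a droplet coat protein of oxidative tissues, lost both of its regions, the stronger (chr17:56117105-56117729) with 62.0 and 81.2. Plin4 and G0s2, an inhibitor of lipolysis, lost 2 of 3 each, and Mgll, a lipase, 2 of 10. Plin2, another droplet coat protein, lost 0 of 6, and its promoter region was called in all 8 libraries, with 72.2 and 89.8 in wild type and 28.7 and 33.3 in Ppara knockout. Plin1 and Fitm1 had no region.

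In equal-number lists, gained regions numbered 1 or 0 in each of these fatty acid and fasting lists. They numbered 1 in each of the uptake (of 26 regions), acyl-CoA synthetase (25), peroxisomal (48), thioesterase (17), ketone body (25) and fasting hormone (15) lists. They numbered 0 in the carnitine shuttle, mitochondrial, omega-hydroxylation, pyruvate dehydrogenase and lipid droplet lists. The single regions made up 2.08% (peroxisomal) to 6.67% (fasting hormones) of their lists, beside 4.52% of all regions. Counts this small do not set these lists apart from all regions.

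**Figure D4:**
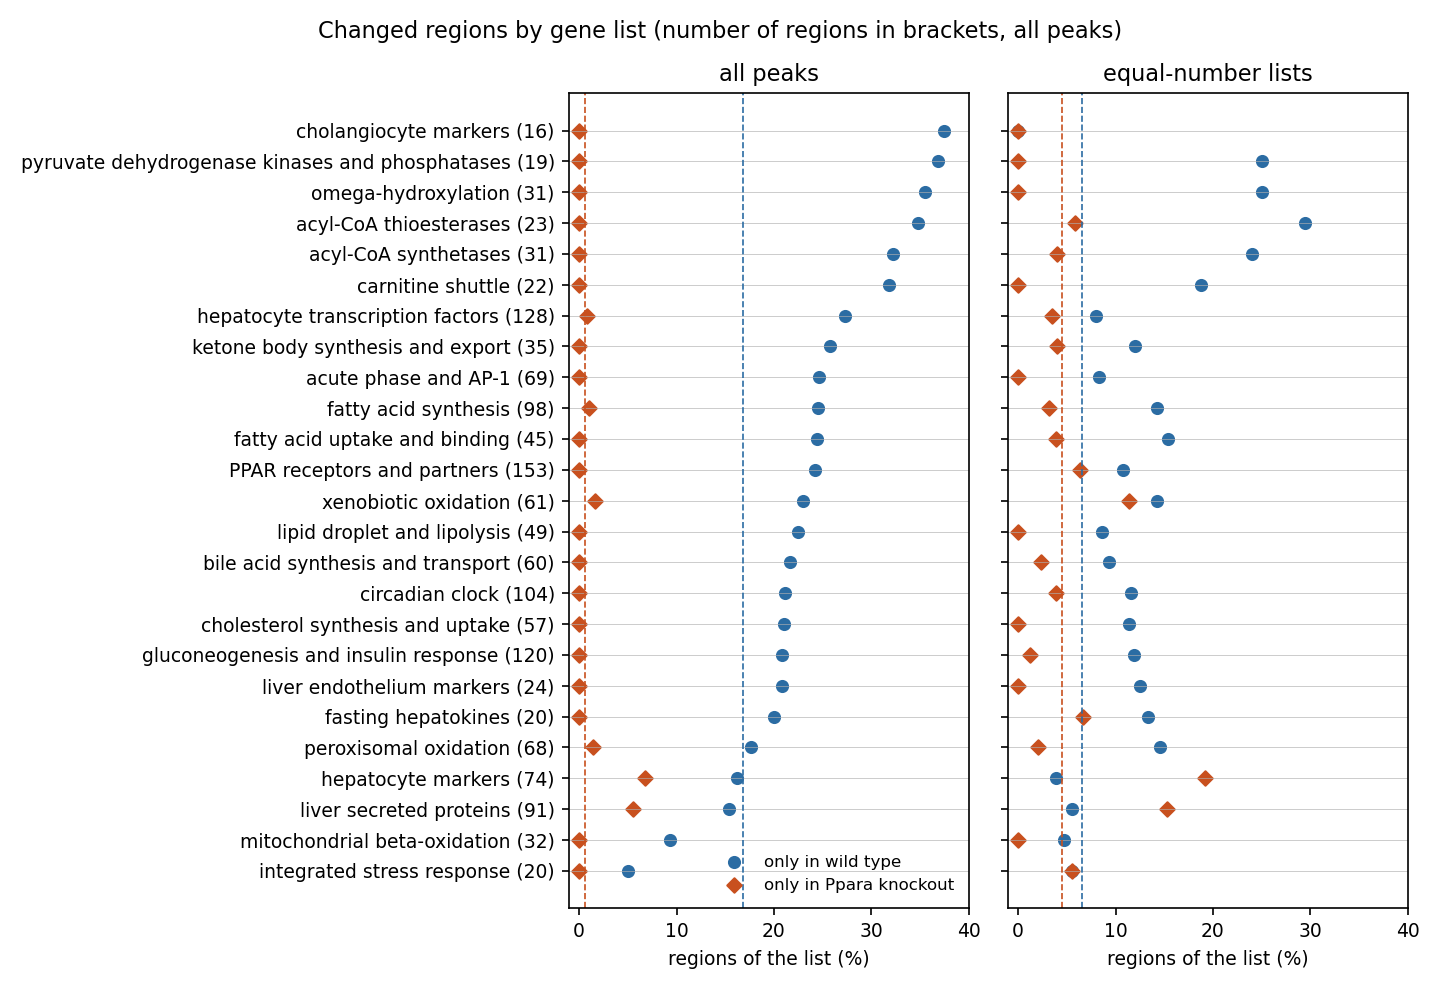
For each gene list, blue circles give the share of its regions (%) called only in wild type and red diamonds the share called only in Ppara knockout, with all peaks on the left and equal-number lists on the right, and dashed lines give the share over all regions. Most lists stand to the right of the blue line in both panels, among them omega-hydroxylation, thioesterase and pyruvate dehydrogenase but also clock and xenobiotic genes. Hepatocyte markers and liver secreted proteins stand furthest to the right of the red line.

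Other metabolic lists had lost shares of 20.8% to 24.5% with all peaks, beside 16.9% of all regions. Fatty acid synthesis lost 24 of 98 (24.5%, and 14.3% in equal-number lists), with 4 of 12 at Elovl5, an elongase, and 3 each at Acacb, Elovl6 and Srebf1. In equal-number lists Elovl5 and Acacb lost 2 each, Elovl6 1 and Srebf1 0, and Elovl6 gained 1. Acacb, which makes the malonyl-CoA that restrains Cpt1a, had the strongest of its 3 inside the gene (chr5:114175557-114176117), with 58.7 and 85.2. Cholesterol genes lost 12 of 57 (21.1%, and 11.4% in equal-number lists). Insig1 lost 3 of 12, Sqle 2 of 5, and Srebf2, the regulator of the pathway, 1 of 4, with 69.9 and 122.5.

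Gluconeogenesis and insulin response genes lost 25 of 120 regions (20.8%, and 11.9% in equal-number lists, against 16.9% and 6.54% of all regions). Irs2 led with 9 of 26, the strongest 72879 bp away (chr8:10911309-10911802) with 54.0 and 148.0 in wild type and no peak in any library without Ppara. Irs1 lost 4 of 11, and Foxo1, the insulin-controlled transcription factor, and Pcx, pyruvate carboxylase, 3 each, of 20 and 11. Pck1, a rate-limiting enzyme of gluconeogenesis, lost 0 of 7.

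Bile acid genes lost 13 of 60 regions (21.7%, and 9.30% in equal-number lists, against 16.9% and 6.54% of all regions). Cyp7a1, the rate-limiting enzyme of bile acid synthesis, lost 2 of 6, one at an edge of the gene's span with 37.7 and 55.4 and one 2854 bp away with 53.6 and 51.4. Nr1h4 and Cyp7b1 lost 3 each, of 9 and 10, and Slco1a1 had no region. Xenobiotic genes lost 14 of 61 (23.0%, and 14.3% in equal-number lists). Cyp3a11 lost 4 of 8 and Cyp2b13 all 3, but in equal-number lists they lost 0 and 1. There 4 of 35 regions of this list (11.4%) were called only in Ppara knockout. Cyp2b23 and Cyp2c54 had no region.

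Among Ppara's relatives and partners 37 of 153 regions were lost (24.2%, and 10.8% in equal-number lists, against 16.9% and 6.54% of all regions). The 37 include the 10 at Ppara. Ppargc1b, a coactivator, lost 4 of 12 and Rxra, the partner receptor, 3 of 16. A region inside Rxra (chr2:27682102-27682530) had 37.2 and 82.5 in wild type. Rxrb had no region. In equal-number lists 7 of the 111 regions of this list (6.31%, near the 4.52% of all regions) were called only in Ppara knockout, 3 of them at Ppargc1a, a coactivator of fasting genes. With all peaks no region of this list was called only in Ppara knockout.

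Hepatocyte transcription factors lost 35 of 128 regions (27.3%), but in equal-number lists 8.05%, near the 6.54% of all regions. Onecut1 lost 7 of 14, Cebpb 6 of 15, Foxa2 5 of 21 with 1 gained, and Nr5a2 5 of 23. In equal-number lists Onecut1 and Foxa2 lost 0, Cebpb 3 and Nr5a2 2, while Foxa2 gained 2 and Cebpb 1. A region 23874 bp from Cebpb (chr2:167714306-167714687) had 26.5 and 67.7 in wild type. Hnf4a, which maintains hepatocyte identity, lost 3 of 14, and 9 of its regions were called in all 4 libraries.

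Clock genes lost 22 of 104 regions (21.2%, and 11.5% in equal-number lists, against 16.9% and 6.54% of all regions). The 22 include 8 of 32 at Rora, a clock receptor, and 3 of 10 at each of Per2 and Hlf. Acute phase and AP-1 genes lost 17 of 69 (24.6%). In equal-number lists they lost 8.33%, near the 6.54% of all regions. Saa1, serum amyloid A, lost all 3 of its regions. The integrated stress response list lost 1 of 20 regions with all peaks (5.0%) and 1 of 18 in equal-number lists (5.56%, near the 6.54% of all regions), the former at Sesn2, a stress-induced regulator of growth signalling. Saa2 of the acute phase list and Atf4 and Phgdh of the stress list had no region.

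Genes of liver secreted proteins had gained as well as lost regions. They lost 14 of 91 regions (15.4%) and gained 5 (5.49%, against 0.570% of all regions). In equal-number lists 4 of 72 (5.56%) were called only in wild type and 11 (15.3%, against 4.52% of all) only in Ppara knockout. Apob, the protein of very low density lipoprotein, lost 3 of 19 and gained 1, Alb lost 2 of 11 and gained 1, and Serpina1a, an antitrypsin gene, lost 2 of 5 and gained 1. In equal-number lists Apob lost 0 and gained 3, Alb lost 1 and gained 2, and Serpina1a lost 0 and gained 2. The region gained with all peaks at Serpina1a (chr12:103851966-103852825) had 21.3 and 25 in Ppara knockout. Both Cpt2 knockout libraries also called it, with 10.1 and 10.2. That at C3, a complement protein, had 24.1 and 15.2, and both Cpt2 knockout libraries called it too.

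Markers of hepatocytes, the main cells of liver, were called in each of the 4 libraries. The 8 hepatocyte markers, several of which are also in the secreted list, had 74 regions, of which 12 were called only in wild type (16.2%) and 5 only in Ppara knockout (6.76%). In equal-number lists these were 2 of 52 (3.85%) and 10 (19.2%). By library, 66.2% and 74.3% of the 74 regions were called in wild type and 62.2% and 50% in Ppara knockout, beside 70.5%, 89.0%, 49.4% and 44.1% of all regions. Cps1 lost 1 of 13 regions and gained 2, the stronger inside the gene (chr1:67163432-67163734) with 22.3 and 16.6.

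Markers of other liver cells varied in how many regions they had. Of the 6 Kupffer cell markers, Adgre1, Cd5l, Vsig4, Marco and Timd4 had no region, and Clec4f had 1, called in wild type 2 alone. Endothelial markers had 24 regions, called at 50% and 83.3% in wild type and 25% and 20.8% in Ppara knockout, and 5 were called only in wild type, 3 of them at Pecam1. In equal-number lists 1 of 8 endothelial regions was lost. Stellate markers had 12, called at 58.3% and 66.7% against 8.33% and 16.7%, with 2 lost, at Dcn and Reln, while Des and Pdgfrb had none. In equal-number lists 1 of 3 stellate regions was lost and 1 gained. Cholangiocyte markers had 16, called at 62.5% and 93.8% against 12.5% and 12.5%. All 6 of their lost regions were at Sox9, none of 7 was lost in equal-number lists, and Krt19, Krt7 and Cftr had no region. Of the lymphoid markers Cd3e, Cd79a and Nkg7 had no region, and Ptprc had 1 gained region, 500733 bp away, which was 1 of 3 lymphoid regions in equal-number lists. Of all regions, 16.9% were lost and 0.570% gained with all peaks, and 6.54% and 4.52% in equal-number lists. With all peaks the lost shares of endothelial (20.8%) and stellate markers (16.7%) were near that of all regions. That of cholangiocyte markers (37.5%) was the highest of any gene list with all peaks. These marker lists are short, and their part in the results above was not tested. In bulk tissue, fewer cells of a type and less accessible DNA per cell cannot be told apart.

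Regions called in all 4 libraries also differed in rank. The 13505 shared regions were ranked again by −log10 p within this set, so that each library's percentiles run over the same regions. In 2811 of them (20.8%) both Ppara knockout libraries ranked above both wild type libraries with group means at least 10 points apart, and in 2767 (20.5%) both ranked below. Since percentiles in a fixed set must balance, similar numbers in the 2 directions follow from the ranking.

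The 6 shared regions with the largest shift upward in Ppara knockout lay at the following genes. A region inside Ppp1r9a, a neuronal scaffold gene (chr6:4923796-4924261), stood at percentiles 21.0 and 0.6 in wild type and 96.0 and 90.1 in Ppara knockout. One 2536 bp from Ndfip2, an adaptor of ubiquitin ligases (chr14:105255595-105256055), stood at 5.0 and 4.9 against 93.5 and 80.7. Inside Miga1, a mitochondrial fusion gene, they were 11.9 and 13.4 against 91.7 and 96.4, and inside App, the amyloid precursor gene, 27.1 and 1.3 against 94.1 and 92.3. Galk2 and Gm52481, the latter on the Y chromosome, made up the 6.

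The 6 with the largest shift downward lay at other genes. A region 4988 bp from G6pc, the last enzyme of glucose release (chr11:101362204-101362728), stood at 85.2 and 76.6 in wild type and 12.8 and 5.1 in Ppara knockout. One inside Slc25a47 (chr12:108850162-108850666) stood at 95.7 and 91.7 against 29.2 and 15. It lay 329 bp from the nearest gene end and 463 bp from the start used above, beside the lost region there. At the start of Ddit3, a stress response transcription factor that overlaps Mbd6 there (chr10:127290410-127291163), the percentiles were 85.9 and 73.2 against 13.9 and 0.7. Inside 3110082I17Rik they were 76.7 and 77.7 against 5.6 and 2.1. Cibar2 and Arhgap26 made up the 6.

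Within the gene lists, some shared regions moved by more than 50 points. Nr0b2, a bile acid induced repressor, had a region at 80.9 and 78.2 in wild type and 14.2 and 12.8 in Ppara knockout. In the other direction, a region at Apoa1, the main protein of high density lipoprotein (chr9:46230045-46231240), stood at 13.7 and 1.5 against 75.2 and 75.5. One inside Slc27a2 (chr2:126575358-126575768) stood at 22.5 and 29.9 against 91.4 and 94.4. These 3 were chosen after their values were seen.

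**Figure D5:**
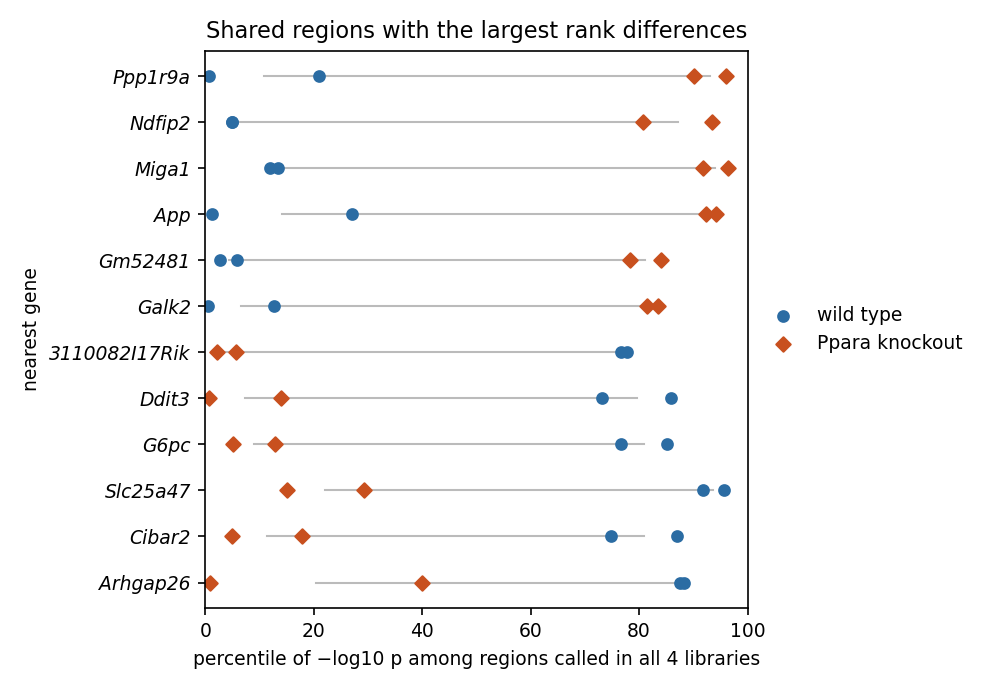
For the 6 shared regions with the largest rank difference in each direction, blue circles (wild type) and red diamonds (Ppara knockout) give each library's percentile of −log10 p among the 13505 regions called in all 4 libraries. Libraries of a genotype lie on the same side in each row, for example 85.2 and 76.6 against 12.8 and 5.1 at G6pc.

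The same loss of Ppara on the Cpt2 knockout background used 4 other libraries. There, 45301 regions were called in at least 1 of the 4, with 10106 (22.3%) only in Cpt2 knockout and 296 (0.653%) only in double knockout. Of the 6740 regions lost in Ppara knockout, 3384 were lost on this background too (50.2%, 95% Wilson interval 49.0% to 51.4%). Both Cpt2 knockout libraries called 5457 of them (81.0%), and neither double knockout library called 4468 (66.3%). Of the 228 gained regions, 34 were gained there as well (14.9%, interval 10.9% to 20.1%). In equal-number lists the shares were 402 of 1707 (23.6%) and 254 of 1179 (21.5%). The share over all regions of equal-number lists on this background is not given here. The 22.3% and 0.653% are for all peaks and cannot be set beside these shares. The intervals cover counting error only.

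Rank shifts were followed in part on that background. Among 11258 regions called in all 8 libraries, 2409 ranked higher in Ppara knockout, and 890 of these (36.9%) also ranked higher in double knockout than in Cpt2 knockout, beside 18.6% of all 11258. Of 2362 ranked higher in wild type, 785 (33.2%) also ranked lower in double knockout, beside 19.0% of all. Opposite calls numbered 209 and 211.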

How the data were processed

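Fasted livers of 4 genotypes, with 2 libraries each, were assayed by ATAC-seq. Per the submitters' processing notes, BWA, MACS2 2.1.0 and mm10 were used. Each peak list was called on 1 library by the authors, per the file headers and peak names. The deposited fold is the authors' ratio of a peak's pileup to its local background, and the deposited −log10 p and −log10 q are the authors' values for each peak. A further deposited table gave positions of consensus regions and no count or signal, so no model per region was fitted. Steps between reads and peaks, such as the Tn5 offset and duplicate handling, are not given in the sources used here.

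Regions were assigned to the nearest of 21900 protein-coding genes of the RefSeq table for GRCm38.p6, and sequences came from 32851 RefSeq promoters. Of 308 list genes, all were in the gene table and 245 matched a promoter. A region's value in a library was the highest −log10 p of its peaks. Peak numbers were compared by an exact permutation test, and other values are counts, shares or ranks with no test. Named were the 8 strongest changed regions and 6 largest rank shifts in each direction, the 10 genes with most lost and up to 5 with most gained regions, up to 4 genes per list with most changed regions, list members with no region, and Ppara. Some genes this rule names are not reported here. The members and the 28 gene lists were chosen with earlier results of these data known. Alternatives were equal-number lists, a −log10 q of at least 20, a 50% cover, ranks by fold, 5 kb, 100 kb, 1 mismatch, the replicate block and each library left out. Computation used Python 3.11.15, NumPy 2.4.6, pandas 2.3.3, SciPy 1.17.1 and matplotlib 3.10.9, and the counting was tested on simulated data. The replicate numbers did not pair the libraries: deviations of same-numbered libraries over the 13505 shared regions had a correlation of 0.0147, with only 2 pairs.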

Additional observations from a re-analysis of the deposited data

Results flagged for a closer look

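A few regions changed in opposite ways with and without Cpt2. Of the regions called only in wild type, 5 were called on the Cpt2 knockout background only in double knockout. They lay inside 4931408C20Rik, Flrt2, an axon guidance and adhesion gene, and Man2a1, a Golgi mannosidase, inside both Gm36722 and Tshz3, and nearest Rspo3, a Wnt signal enhancer. In equal-number lists none of the 5 was still called only in wild type. The region nearest Rspo3 had a −log10 p of 24.2 and 20.3 in wild type and of 54.1 and 22.2 in double knockout. Of the regions called only in Ppara knockout, 6 were called on that background only in Cpt2 knockout, inside Syne1, Pfas, Lgi2 and Alb and nearest Pafah1b1 and Tmprss2. All of these but the region at Pfas were still called only in Ppara knockout in equal-number lists. That inside Alb (chr5:90470236-90470535) had 14.0 and 21.0 in Ppara knockout and 17.8 and 25 in Cpt2 knockout. Libraries of each group moved together in these 11 regions by the way they were chosen, and the differences were not tested.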

How the results depend on the processing

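Lost regions outnumbered gained ones under each alternative run for both. The 6740 regions called only in wild type became 1707 in equal-number lists, and the 228 called only in Ppara knockout became 1179 there. With a minimum −log10 q of 20 the gained regions numbered 47. Leaving out 1 library, which eases the rule by construction, gave 8638 to 14787 and 319 to 1147. Without wild type 1 the lost regions numbered 14787 and without Ppara knockout 1 they numbered 10372. Without wild type 2, Ppara knockout 1 or Ppara knockout 2 the gained ones numbered 641, 1078 and 1147. An alternative added after seeing the data left out regions between non-consecutive peak numbers of a knockout list and gave 6448 lost regions. With 20 points in place of 10, shared regions ranked higher in Ppara knockout and in wild type numbered 1810 and 1831, and with 1 library left out 3484 to 4867 and 3561 to 4874. The difference in peak number, -13125.5, was the same with the replicate number as a block (exact p = 0.5), and lay between -16829.5 and -9421.5 with 1 library left out. In equal-number lists the shares of lost and gained regions changed likewise on the Cpt2 background were 23.6% and 21.5%, with no share over all regions beside them. The share of lost regions near a gene end was 36.6% at 5 kb and 15.5% in equal-number lists, and the motif share at 1 mismatch was 0.716%. Of the gene lists' lost shares relative to all regions, all but 2 of 27 kept their direction in equal-number lists, though sizes moved, for example from 0.795 to 8.04 points for peroxisomal oxidation and from -11.9 to -0.985 for the integrated stress response. Those of stellate and cholangiocyte markers turned there, to 26.8 and -6.54 points, and that of hepatocyte markers turned to 0.266 with regions within 100 kb. The cause of these changes was not tested. Without read counts, a missing peak shows only that a region did not pass the caller's threshold.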

Other observations

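Some regions called only in Ppara knockout in equal-number lists lay at the far end of a gene, away from its start. In equal-number lists, 42 of 1158 regions called only in Ppara knockout (3.63%) lay within 1 kb of a gene's far end and not of a start, against 26 of 1664 called only in wild type (1.56%) and 1.96% of all regions. By library the share was 1.71% and 1.65% in wild type and 1.95% and 1.89% in Ppara knockout, so the groups did not overlap but lay close together. At Igfbp1, which binds insulin-like growth factors and rises with fasting, the region at chr11:7202580-7204215 had a −log10 p of 16.0 in wild type 2, no peak in wild type 1, and 35.8 and 30.7 in Ppara knockout. In double knockout it had 94.6 and 87.8. At Tat, an amino acid breakdown enzyme, the values were 20.3 and 11.2 in wild type and 28.3 and 42.9 in Ppara knockout. At Cyp3a25, a drug oxidase, they were 15.2 in wild type 2 alone, and 41.3 and 25.9 in Ppara knockout. Cyp2e1, which oxidises ethanol and acetone, had 13.5 and 13.2 against 17.4 and 28.7. The measure and these genes were chosen after their values were seen.

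Lost regions also stood in unbroken runs, with no other called region between them. The longest held 7 regions over 90.03 kb at Pde9a, a cyclic GMP phosphodiesterase. Daam1 and Ttc39c had runs of 6, and Adipor2, an adiponectin receptor, had a run of 5 within 11.8 kb. These runs were found after the values were seen, and 4358 lost regions stood alone.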
